A study of Mus musculus with 14 samples.

Results

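The mature arms of miR-142, miR-223 and miR-511, microRNAs (miRNAs) known from cells of the myeloid lineage, were followed in mouse dorsal root ganglia (DRG, which hold the cell bodies of the sensory neurons). They were chosen by name, as every measured arm of these hairpins, which gave 6 of the 1123 mature miRNAs measured. Small RNA was sequenced from 14 libraries in 4 groups: C57BL/6 naive (n = 5), C57BL/6 injured (n = 3), CAST/Ei naive (n = 3) and CAST/Ei injured (n = 3). C57BL/6 is the common laboratory strain, and CAST/Ei is a wild-derived inbred strain of Mus musculus castaneus. No transgene or mutant allele is labelled in either strain. The injured animals were adult males of 8 to 10 weeks in which smooth forceps had compressed the left sciatic nerve at the sciatic notch for 30 s. Naive animals carry the treatment label none, and their age and sex were not given in the sources used here. The time from crush to dissection, the ganglia taken and any pooling of animals were likewise not given in the sources used here. Ganglia were dissociated before RNA was extracted, so each library mixes neurons, glia, vessels, blood and immune cells.

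A miRNA hairpin is cut into a 5p and a 3p strand, and the arm that is loaded into Argonaute pairs with target RNAs mainly through its seed, bases 2 to 8. miR-142 is made in nearly all blood-derived cells and is widely used to mark them. miR-223 is abundant in neutrophils and is also found in monocytes, macrophages and platelets. miR-511 is encoded within Mrc1, the gene of the macrophage mannose receptor CD206, and is known from tissue macrophages and dendritic cells. Peripheral nerve injury is known to be followed by a rise of macrophages in the DRG, and these ganglia also hold resident macrophages.

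The mature sequences below are the RefSeq entries (GRCm38.p6) for the counted names. The miRNA release used in counting is not given in the sources used here. None of the members with a sequence shares a seed with another, and no other measured miRNA with a known sequence carries one of these seeds. A name matched a RefSeq mature sequence for 920 of the 1123 miRNAs and for 5 of the 6 members, miR-511-5p being the exception. The arms of miR-142 were matched under the name miR-142a. Capitals mark bases 2 to 8, and each sequence runs 5′ to 3′.
miR-511-3p: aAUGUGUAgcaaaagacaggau
miR-142-5p: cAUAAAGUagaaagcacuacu
miR-142-3p: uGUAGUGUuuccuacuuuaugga
miR-223-5p: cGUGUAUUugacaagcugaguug
miR-223-3p: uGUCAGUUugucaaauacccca
miR-142b: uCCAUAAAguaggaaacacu
The last, miR-142b, is not a member, and it is printed because it is read from the strand opposite miR-142.

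The hairpins lie on 3 chromosomes in GRCm38. Mir511 (chr2:14261003-14261081, plus strand) lies in intron 5 of Mrc1, on the same strand as that gene, which spans chr2:14229392-14332057 and has 30 exons in transcript Mrc1-201. Its RefSeq hairpin is shown to place the single annotated arm, in capitals, on the 3′ side.
Mir511: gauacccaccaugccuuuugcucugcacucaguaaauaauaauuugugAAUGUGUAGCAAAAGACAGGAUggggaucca
Mir142 (chr11:87756864-87756927, plus strand) lies in intron 1 of the long noncoding RNA Mir142hg, and Mir142b (chr11:87756841-87756955) lies over it on the minus strand. Mir223 (chrX:96242817-96242926, plus strand) lies in an exon of the noncoding RNA F630028O10Rik, 4277 bases from the nearest protein-coding gene found, Vsig4. The authors' genome build is not given in the sources used here, so these positions are those of the RefSeq and GENCODE annotation and not of the counting.

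The libraries held 4007706 to 15642360 reads counted to miRNAs. Values are CPM (read counts per fixed library total, on library sizes scaled by the authors), in which 1 read was worth 0.0674 to 0.253 CPM and 3 reads, taken as the floor, 0.202 to 0.760 CPM. The marker miRNAs set 2 libraries, C57BL/6 naive 4 and 5, apart from the other 12. In them the miRNAs of myelinating glia summed to 6737 and 7123 CPM, against 15065 to 43006 in the others, the lymphocyte miRNAs to 5364 and 3771 CPM against 1360 to 3003, and the epithelial miRNAs to 1591 and 447 CPM against 217 to 384. The single miRNAs of the last 2 lists differed. Beside the other C57BL/6 naive libraries, miR-150-5p was higher in both (others 170 to 1658 CPM). Lymphocyte miR-342-5p, at 26.3 and 65.8 CPM, lay on either side of the others (35.7 to 61.4 CPM). Epithelial miR-203-3p was lower in both (others 191 to 227 CPM). For the members, differences that involve C57BL/6 naive ganglia are therefore also given without these libraries. The labelled tissue was checked by miRNAs of sensory neurons (miR-183-5p, miR-182-5p, miR-96-5p, miR-124-3p and miR-138-5p), which summed to 95969 to 161052 CPM with none of the 5 at 0. In bulk ganglia, a change in the number of cells of a type and a change in the RNA of each cell cannot be told apart.

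The members spanned several orders of magnitude. miR-223-3p was the highest, averaging 2876 CPM across the 14 libraries, rank 60 of the 1123 miRNAs. miR-142-3p followed at 1240.5 CPM (rank 94), then miR-142-5p at 390 CPM (rank 162) and miR-511-3p at 96.5 CPM (rank 273). miR-223-5p averaged 8.90 CPM and miR-511-5p 0.503 CPM. miR-223-3p exceeded miR-142-3p in 14 of 14 libraries, by a ratio of at least 1.27, although the ranges of these neighbours overlapped across libraries. miR-142-3p and miR-142-5p were the only neighbours whose order was broken within a library: the 3p arm was higher in 12 of 14, and lower in C57BL/6 naive libraries 4 and 5, with a lowest ratio of 0.677. miR-142-5p was at least 2.40 times miR-511-3p in every library, and miR-511-3p at least 4.54 times miR-223-5p, with no overlap between these neighbours.

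**Figure D1:**
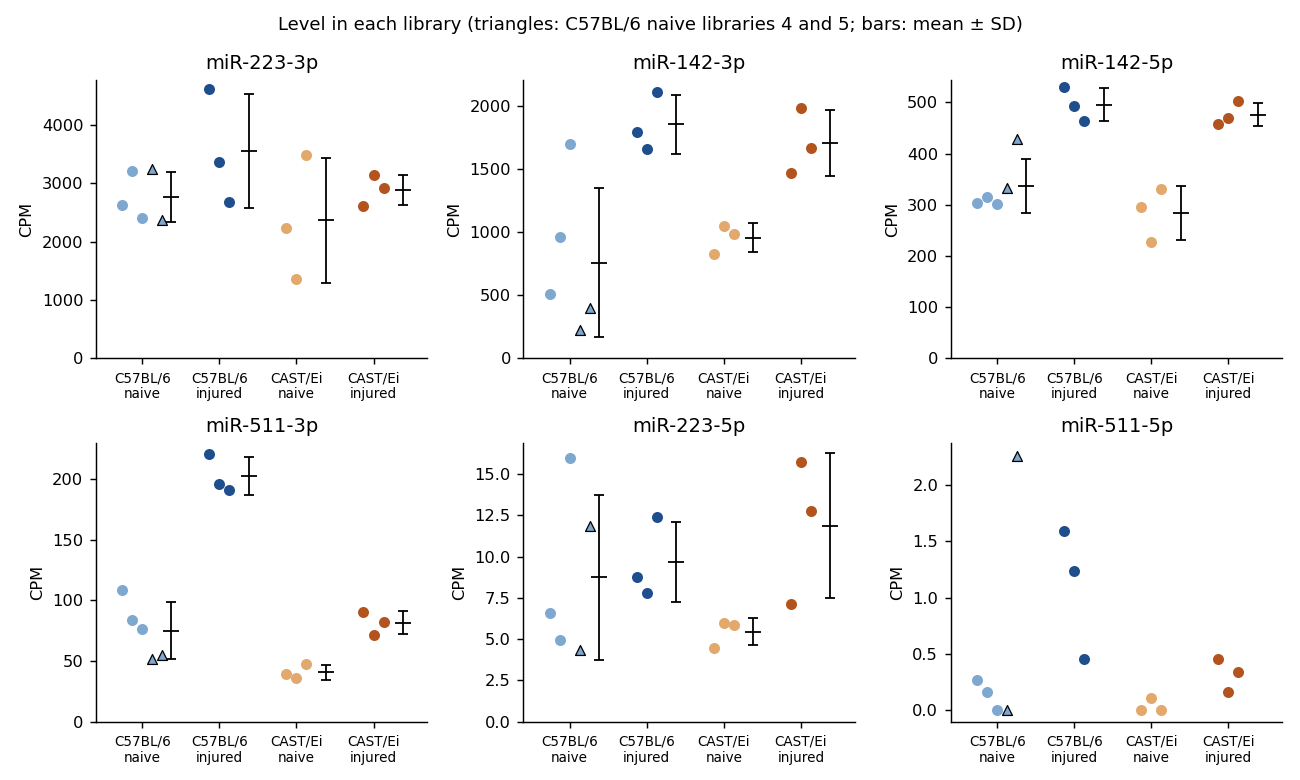
CPM (linear axis) of the 6 members in each of the 14 libraries, 1 panel per arm and 4 groups per panel; points are libraries, and bars show the group mean and SD except for miR-511-5p, which has too few reads for one. In miR-511-3p the C57BL/6 injured libraries, at 191 to 221 CPM, lie above every other library, and in miR-142-3p the C57BL/6 naive libraries run from 226 to 1700 CPM.

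miR-511-3p, the arm from the mannose receptor gene, was higher after injury in both strains, and the difference passed the test in C57BL/6. In C57BL/6 naive libraries 1 to 5 it measured 109, 83.8, 76.3, 51.8 and 54.7 CPM. The C57BL/6 injured libraries held 221, 196 and 191 CPM, so the lowest injured library was well above the highest naive one. The group means were 75.1 ± 23.3 (SD, n = 5) and 203 ± 15.6 CPM (SD, n = 3), a ratio of 2.70. On the log2(CPM + 1) scale, on which every test was made, miR-511-3p rose by 1.47 ± 0.26 (SE; limma adjusted p = 0.0054). Without naive libraries 4 and 5 the naive mean was 89.6 ± 17.0 CPM (SD, n = 3) and the rise 1.18 (adjusted p = 0.0044). This call held in 24 of 26 alternative analyses and was lost when only these groups were fitted (adjusted p = 0.0765) and by edgeR without C57BL/6 injured library 1 (adjusted p = 0.104).

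In CAST/Ei, miR-511-3p measured 39.2, 35.7 and 47.5 CPM in the naive libraries and 90.4, 71.5 and 82.5 CPM in the injured ones. The injured libraries were again all above the naive ones, with means of 40.8 ± 6.04 and 81.5 ± 9.50 CPM (SD, n = 3 each) and a ratio of 2.0. The difference, 0.98 ± 0.30 on the log2 scale, did not pass the test over all miRNAs (limma adjusted p = 0.219). DESeq2 called it (adjusted p = 0.0331), as did limma once C57BL/6 naive libraries 4 and 5, which enter the shared estimate of the spread, were left out (adjusted p = 0.0181).

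Both arms of miR-142, the marker of blood-derived cells, had higher means after injury in both strains, and neither arm passed the test within a strain. The values of miR-142-5p were tight. In C57BL/6 they were 304, 315, 302, 334 and 429 CPM before and 529, 494 and 464 CPM after injury. In CAST/Ei they were 295, 227 and 332 CPM before and 459, 469 and 502 CPM after injury. Every injured library exceeded every naive one, across strains as well as within them. The log2 differences were 0.57 ± 0.21 in C57BL/6 (SE; limma adjusted p = 0.132) and 0.76 ± 0.24 in CAST/Ei (limma adjusted p = 0.222). Without C57BL/6 naive libraries 4 and 5 both passed, at 0.69 (adjusted p = 0.0452) and 0.76 (adjusted p = 0.0389).

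miR-142-3p was more variable in C57BL/6 naive ganglia, at 513, 962, 1700, 226 and 400 CPM. Injured C57BL/6 libraries held 1796, 1660 and 2114 CPM, and naive library 3 fell within their range. Library 3 also had the highest summed level of red blood cell miRNAs, 26474 CPM against 7369 to 15841 CPM in the other 13 libraries, and the part of blood in its value was not tested. The difference of 1.63 ± 0.46 did not pass (SE; limma adjusted p = 0.0743). Without naive library 3 it passed at 2.0 (adjusted p = 0.00677), and without naive libraries 4 and 5, the lowest and the next lowest, it was 0.97 (adjusted p = 0.117). In CAST/Ei the naive libraries held 830, 1052 and 990 CPM and the injured ones 1468, 1989 and 1667 CPM, with no overlap and a log2 difference of 0.83 ± 0.52 (limma adjusted p = 0.746).

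miR-223, the neutrophil-rich miRNA, did not pass the test on either arm. miR-223-3p measured 2620, 3208, 2406, 3247 and 2372 CPM in C57BL/6 naive and 4609, 3368 and 2686 CPM in C57BL/6 injured ganglia. In CAST/Ei it was 2231, 1367 and 3493 CPM in naive and 2608, 3135 and 2915 CPM in injured ganglia. The groups overlapped in both strains, and the differences were 0.34 ± 0.28 (limma adjusted p = 0.494) and 0.39 ± 0.31 (limma adjusted p = 0.827), the first of them 0.35 without naive libraries 4 and 5. miR-223-5p, at 4.36 to 16.0 CPM over all libraries, overlapped in C57BL/6 (0.25 ± 0.39, limma adjusted p = 0.710; 0.20 without naive libraries 4 and 5) and not in CAST/Ei, where naive libraries held 4.49 to 6.01 CPM and injured ones 7.12 to 15.7 CPM (0.94 ± 0.43, limma adjusted p = 0.667).

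Read against all miRNAs tested, 1 of the 5 tested members rose in C57BL/6, where 2.35% of the 638 tested rose (15) and 3.13% changed in either direction (20). In CAST/Ei 0 of 5 passed with limma, where 1.1% of all did (7). At an unadjusted p under 0.05, 3 of 5 members passed in CAST/Ei against 6.43% of all tested. There edgeR called 0 of 5 members and 1.25% of all, and DESeq2 called 2 of 5 members and 2.51% of all. Without C57BL/6 naive libraries 4 and 5, 2 of 5 members rose in C57BL/6, where 3.61% of all rose (23), and 2 of 5 in CAST/Ei, where 1.88% did (12). With all libraries, the injured ones were all above the naive ones for 2 of 5 members in C57BL/6, where this held for 8.62% of all, and for 4 of 5 in CAST/Ei, where it held for 10.2%. All 5 log2 differences were above 0 in each strain, as were 57.5% of all miRNAs in C57BL/6 and 42.8% in CAST/Ei. Their median was 0.57 in C57BL/6 beside 0.12 over all tested, and 0.83 in CAST/Ei beside -0.09. The sixth member, miR-511-5p, never reached 5 CPM and was not tested.

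Averaged over the strains, which uses all 14 libraries, miR-511-3p and miR-142-5p rose. miR-511-3p changed by 1.23 ± 0.20 (SE; limma adjusted p = 0.0013) and passed in all 25 alternative analyses, with a highest adjusted p of 0.0114; without C57BL/6 naive libraries 4 and 5 it was 1.08. miR-142-5p changed by 0.66 ± 0.16 (limma adjusted p = 0.0241), or 0.72 without C57BL/6 naive libraries 4 and 5, and passed in 16 of 25. It was lost, with adjusted p from 0.0545 to 0.0901, without any 1 of the 3 C57BL/6 injured libraries, CAST/Ei naive library 1 or 2, or any 1 of the 3 CAST/Ei injured libraries, and it was lost by edgeR without C57BL/6 injured library 1 (adjusted p = 0.109). miR-142-3p, at 1.23 ± 0.35, did not pass (limma adjusted p = 0.0657), although it passed in 7 of 25 alternatives, among them the fit without C57BL/6 naive libraries 4 and 5, where it was 0.90 (adjusted p = 0.0255), and those without naive library 2 (1.3, adjusted p = 0.0453), 3 (1.42, adjusted p = 0.00519) or 4 (1.05, adjusted p = 0.0404). For miR-223-3p the averaged difference was 0.36 ± 0.21 (limma adjusted p = 0.419; 0.37 without C57BL/6 naive libraries 4 and 5), and for miR-223-5p 0.60 ± 0.29 (limma adjusted p = 0.328; 0.57 without them). Of all 638 miRNAs, 3.13% rose in this comparison (20) and 4.23% changed in either direction (27).

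**Figure D2:**
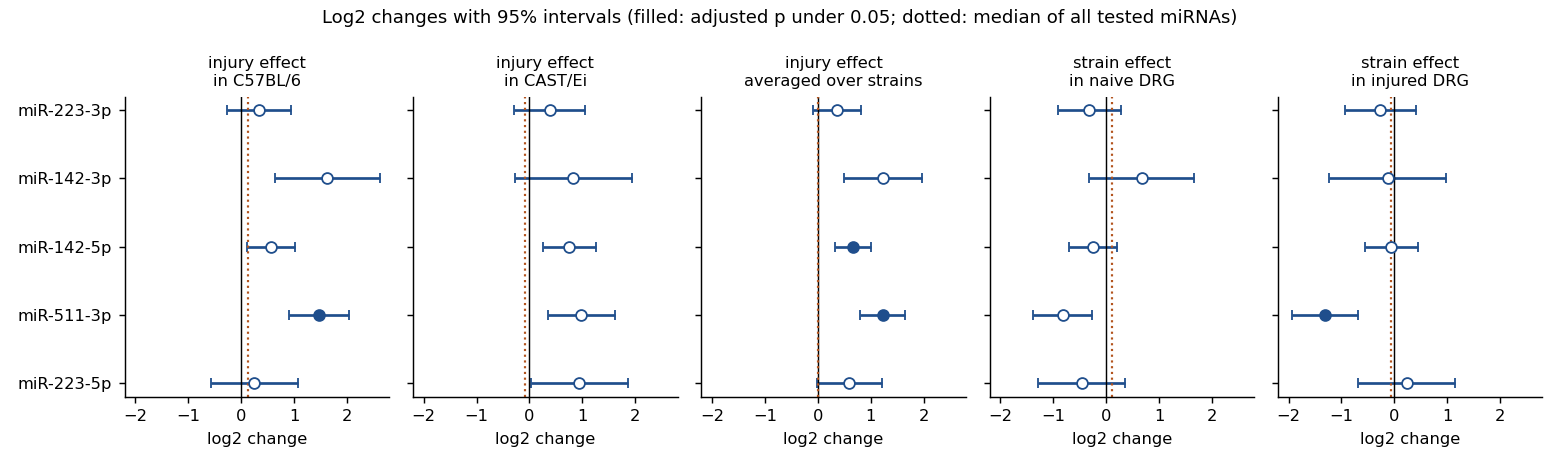
Log2 differences of log2(CPM + 1) for the 5 tested members in each comparison, with 95% intervals from limma; filled points passed the adjusted p threshold of 0.05, and the dotted line is the median of all tested miRNAs. miR-511-3p is the filled point for injury in C57BL/6 (1.47) and for strain in injured ganglia (-1.31), and it is joined by miR-142-5p (0.66) in the injury effect averaged over strains.

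Between the strains, miR-511-3p passed the test in injured ganglia, and no other tested member passed in either condition. Naive CAST/Ei ganglia held 35.7 to 47.5 CPM of miR-511-3p and naive C57BL/6 ganglia 51.8 to 109 CPM, so the groups did not overlap, as was the case in this direction for 7.05% of all tested. The difference, CAST/Ei minus C57BL/6, was -0.82 ± 0.26 and just missed the threshold (limma adjusted p = 0.0564). It passed in 6 of 26 alternatives, with edgeR (adjusted p = 0.0347), with DESeq2 (adjusted p = 0.00453), and when C57BL/6 naive library 4 (-0.94, adjusted p = 0.0316), library 5 (-0.92, adjusted p = 0.0285) or both (-1.11, adjusted p = 0.00282) were left out. It also passed with the replicate number of the titles as a block (-1.11, adjusted p = 0.0031). Of the others, miR-142-3p differed by 0.67 (limma adjusted p = 0.335), which fell to 0.014 (adjusted p = 0.974) without C57BL/6 naive libraries 4 and 5. miR-142-5p, miR-223-3p and miR-223-5p differed by -0.25, -0.32 and -0.46 (limma adjusted p from 0.447 to 0.467), or by -0.13, -0.31 and -0.51 without those libraries. With limma 0 of 5 members passed in naive ganglia, where 11.1% of all miRNAs did (71). At an unadjusted p under 0.05, 1 of 5 members passed, against 31.8% of all. Over all miRNAs edgeR called 12.1% and DESeq2 18.5% in this comparison.

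After injury, CAST/Ei ganglia held 71.5 to 90.4 CPM of miR-511-3p, below the 191 to 221 CPM of injured C57BL/6 ganglia and within the range of naive C57BL/6 ganglia. The mean ratio of CAST/Ei to C57BL/6 was 0.402, and miR-511-3p was lower by a log2 difference of -1.31 ± 0.30 (SE; limma adjusted p = 0.0167). It was 1 of 5 members called lower, where 2.51% of all 638 were called lower (16), 3.29% were called in either direction (21) and 20.5% had all CAST/Ei libraries below all C57BL/6 ones. The direction held in all 26 alternatives and the call in 18. The call was lost without C57BL/6 injured library 1, 2 or 3 (adjusted p = 0.0915, 0.0699 and 0.0569), without CAST/Ei injured library 2 or 3 (adjusted p = 0.0999 and 0.0734), under both rescalings (adjusted p = 0.0773 and 0.0886) and by edgeR without C57BL/6 injured library 1 (adjusted p = 0.136). In injured ganglia miR-223-3p differed by -0.27, miR-142-3p by -0.12 and miR-223-5p by 0.23, with limma adjusted p of 0.974 or higher. The difference of miR-142-5p was -0.06 (limma adjusted p = 0.985) and turned to 0.026 and 0.053 under the rescalings and to 0.0038 with edgeR.

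Whether injury acted differently in the strains was tested as the difference of the injury effects, CAST/Ei minus C57BL/6. For miR-511-3p it was -0.49 with a 95% interval from -1.33 to 0.36 (limma adjusted p = 0.596), and without C57BL/6 naive libraries 4 and 5 it was -0.20 (adjusted p = 0.785). The intervals were -2.28 to 0.69 for miR-142-3p, -0.48 to 0.86 for miR-142-5p, -0.85 to 0.95 for miR-223-3p and -0.54 to 1.92 for miR-223-5p. The estimate for miR-142-3p was -0.80 and moved to -0.14 without those libraries. For miR-142-5p it was 0.19 and then 0.070, for miR-223-3p 0.05 and then 0.039, and for miR-223-5p 0.69 and then 0.75. None of the 5 members passed with limma, 0 had an unadjusted p under 0.05, and edgeR and DESeq2 called 0 each. Over all 638 miRNAs limma called 0 (0%), edgeR 0.157% and DESeq2 1.41%, and 8.15% had an unadjusted p under 0.05.

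The level of miR-511-3p was also set against the other members within each library, which takes out the scaling between libraries. As a percentage of miR-142-5p it was 12.8 to 35.7% before (mean 23.2 ± 9.24, SD, n = 5) and 39.8 to 41.7% after injury (40.9 ± 0.989, n = 3) in C57BL/6. In CAST/Ei it was 13.3 to 15.7% before (14.4 ± 1.22, n = 3) and 15.3 to 19.7% after injury (17.1 ± 2.31, n = 3). The C57BL/6 injured libraries thus lay above all others. C57BL/6 naive libraries 4 and 5, at 15.5 and 12.8%, were close to the CAST/Ei naive libraries, and without them the naive mean was 29.2 ± 5.70% (n = 3). Against miR-223-3p it was 2.77 ± 0.960% before (3.31 ± 0.779% without libraries 4 and 5) and 5.91 ± 1.17% after injury in C57BL/6, and 1.91 ± 0.640% before and 2.86 ± 0.593% after injury in CAST/Ei. No test was made of these percentages, which were chosen with the levels known.

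**Figure D3:**
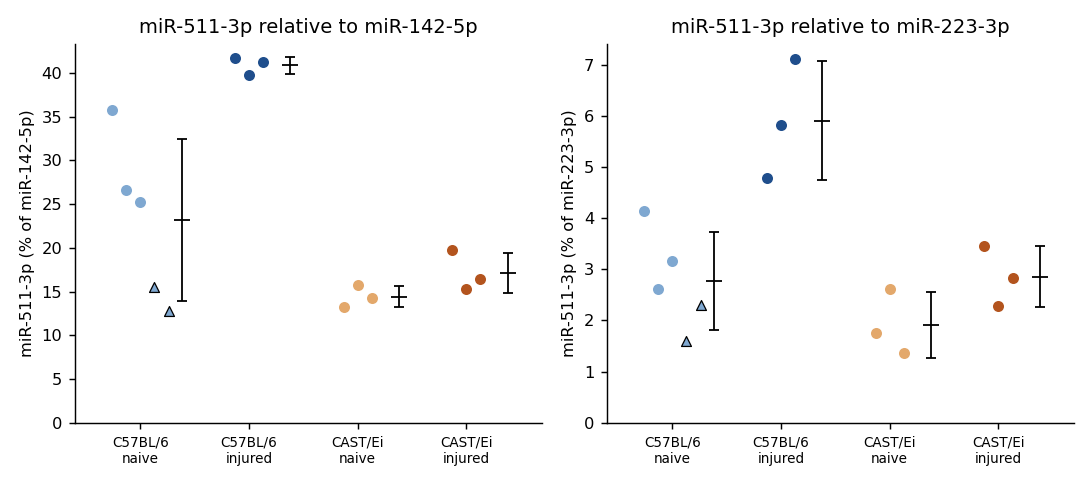
miR-511-3p as a percentage of miR-142-5p and of miR-223-3p in each library, by group (linear axes); points are libraries and bars the mean and SD. Against miR-142-5p, the 3 C57BL/6 injured libraries sit at 39.8 to 41.7% and the 3 CAST/Ei injured libraries at 15.3 to 19.7%.

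The hairpins differed in how evenly their arms were recovered. For miR-142 both arms were abundant: the 5p arm made up 32.1% of the reads of both arms before and 21% after injury in C57BL/6, and 23.2% before and 22.4% after injury in CAST/Ei. In single C57BL/6 naive libraries this share ran from 15.1 to 59.6%, and without libraries 4 and 5 the share before injury was 24.6%. For miR-223 the 5p share was 0.250, 0.275, 0.236 and 0.398% in the same order. For miR-511 it was 0.471% over all libraries, 61 of 12959 reads, with an exact (Clopper-Pearson) 95% interval of 0.360 to 0.604%, which covers counting error only.

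The log2 ratio of 3p to 5p was compared between groups in 12 exact two-sided permutation tests, and the values are given as a description: with this many tests the smallest adjusted p the design allows is 0.0714, so none could pass. For miR-142 it was 0.84 ± 1.24 before (SD, n = 5) and 1.90 ± 0.25 after injury in C57BL/6 (n = 3), and 1.76 ± 0.39 before and 1.83 ± 0.22 after injury in CAST/Ei (n = 3 each). The C57BL/6 naive libraries ranged from -0.56 in library 4 to 2.49 in library 3, and libraries 4 and 5 were the only ones of the 14 below 0. The injured and naive means of C57BL/6 differed by 1.06 with overlapping groups (exact permutation p = 0.25), and by 0.28 without these libraries (exact permutation p = 0.7). For miR-223 the means were 8.29, 8.37, 8.42 and 7.87, and exact permutation p-values ran from 0.3 to 0.929. For miR-511 they were 5.74, 6.64, 5.32 and 5.97, and the difference of 0.90 between injured and naive C57BL/6 ganglia (exact permutation p = 0.0714) was 0.35 without libraries 4 and 5 (exact permutation p = 0.2). miR-511-5p was at most 2.26 CPM, so with 1 CPM added its ratio mainly follows the level of miR-511-3p and is not a measure of arm use. By reads, the miR-511 5p share in C57BL/6 was 0.554% before and 0.527% after injury. Without libraries 4 and 5 the share before injury was 0.187%. Before adjustment the smallest possible p is 0.0357 for 5 against 3 libraries and 0.1 for 3 against 3.

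**Figure D4:**
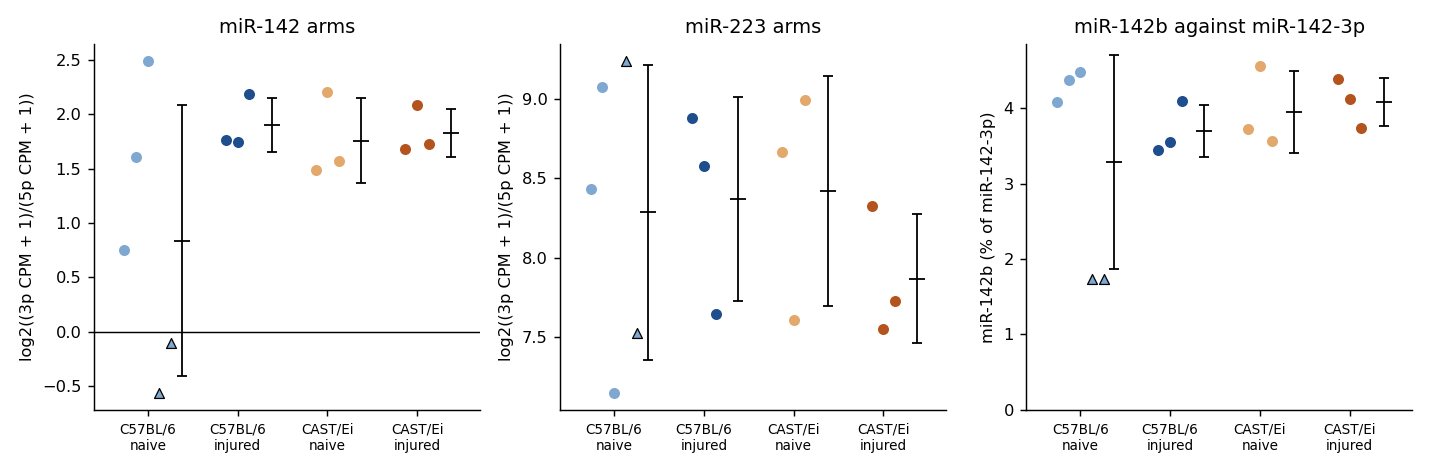
Log2 ratio of the 3p to the 5p arm, after adding 1 CPM to each, for miR-142 and miR-223 in each library, by group. The last panel shows miR-142b as a percentage of miR-142-3p. Points are libraries and bars the mean and SD. For miR-142 the C57BL/6 naive libraries spread from -0.56 to 2.49, while the other 3 groups average 1.76 to 1.90.

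miR-511-5p was near the limit of detection. It had reads in 10 of 14 libraries and 61 reads in all. C57BL/6 naive libraries 1 and 2 had 2 reads each, libraries 3 and 4 had 0, and library 5 had 12 (2.26 CPM). The C57BL/6 injured libraries had 16, 12 and 5 reads, at 1.59, 1.23 and 0.455 CPM. CAST/Ei naive libraries had 0, 1 and 0 reads, and CAST/Ei injured libraries 5, 1 and 5. Of the reads of both miR-511 arms, the 5p arm took 3.96% in C57BL/6 naive library 5 and at most 0.717% in any C57BL/6 injured library.

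miR-142b, annotated on the strand opposite Mir142, ran beside miR-142-3p. All 20 bases of its mature sequence occur in the reverse complement of miR-142-3p, shown here with the shared bases in capitals.
Reverse complement of miR-142-3p: UCCAUAAAGUAGGAAACACUaca
miR-142b averaged 30.0 CPM before (46.4 CPM without libraries 4 and 5) and 69.2 CPM after injury in C57BL/6, and 38.1 and 69.6 CPM in CAST/Ei. In 12 libraries its reads were 3.45 to 4.57% of those of miR-142-3p, with a median of 4.09%, and in C57BL/6 naive libraries 4 and 5 they were 1.73 and 1.74%. Its injury difference was 1.82 ± 0.66 in C57BL/6 (limma adjusted p = 0.129; 0.73 without those libraries) and 0.87 ± 0.74 in CAST/Ei (limma adjusted p = 0.838). Whether the counting used the strand is not given in the sources used here. Reads of miR-142b and reads of miR-142-3p counted to miR-142b therefore cannot be told apart from these values. Of the 920 miRNAs with a sequence, 6 lie in this way within the reverse complement of another, in 8 pairs.

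Of other miRNAs tied to leukocytes and inflammation, 14 arms of miR-155, miR-146a, miR-146b, miR-147, miR-150, miR-342 and miR-21a were measured and 10 were tested. In C57BL/6, 1 of the 10 rose and 0 fell, with a median log2 difference of -0.20, where 2.35% of all tested rose. In CAST/Ei 2 rose and 0 fell, with a median of 0.32, where 1.1% of all tested changed in either direction. miR-21a-5p, which is induced in many injured tissues and is not particular to leukocytes, rose in both, by 1.76 ± 0.29 (limma adjusted p = 0.00283) and 1.57 ± 0.32 (limma adjusted p = 0.0209). Its partner miR-21a-3p rose in CAST/Ei by 2.89 ± 0.42 (limma adjusted p = 0.00269) and differed by 1.41 ± 0.38 in C57BL/6 (limma adjusted p = 0.0534). In the averaged comparison both arms of miR-21a passed and the other 8 arms did not, where 4.23% of all tested passed. miR-150-5p, a lymphocyte miRNA, was the single arm of this list to differ between naive strains, at -3.06 ± 0.72 in CAST/Ei (limma adjusted p = 0.0139; -2.11 and adjusted p = 0.0337 without C57BL/6 naive libraries 4 and 5). Its groups overlapped, at 170 to 2713 CPM in naive C57BL/6 and 82.0 to 180 CPM in naive CAST/Ei ganglia. Of all miRNAs tested, 11.1% passed in this comparison.

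Markers of other cells were read beside the members. None of the 5 red blood cell, 3 lymphocyte, 2 endothelial, 4 fibroblast, 7 epithelial, 5 sensory neuron or 3 myelinating glia miRNAs tested passed with limma for injury in either strain. Of 4 skeletal muscle miRNAs 2 fell in C57BL/6, where 3.13% of all tested changed in either direction. Summed red blood cell miRNAs were 7369 to 26474 CPM before and 11216 to 14588 CPM after injury in C57BL/6, and 9682 to 13468 CPM before and 7680 to 9173 CPM after injury in CAST/Ei, with none of the 5 at 0. Most of this sum is miR-451a, and the single miRNAs differed. miR-144-3p was higher in C57BL/6 injured libraries (1221 to 1703 CPM) than in naive ones (207 to 1187 CPM) without overlap, a log2 difference of 1.66 ± 0.48 that was as large as that of miR-142-3p and did not pass (limma adjusted p = 0.0743; 0.94 without libraries 4 and 5). miR-486-3p went the other way there, at -1.42 ± 0.42 (limma adjusted p = 0.0790), or -0.71 without libraries 4 and 5. With all libraries edgeR (adjusted p = 0.0337) and DESeq2 (adjusted p = 0.00201) called it lower. In CAST/Ei all 5 red blood cell miRNAs had differences below 0, from -0.54 to -0.39, and 3 of the 5 overlapped between groups. Summed glial miRNAs, nearly all miR-338-3p, ran from 6737 to 33997 CPM in C57BL/6 naive ganglia (15065 to 33997 CPM without libraries 4 and 5). They ran from 34077 to 43006 CPM in C57BL/6 injured ganglia, the lowest of these just above the highest naive library. The summed members were also higher after injury there, and 2 of the 5 tested members were so without overlap. Summed endothelial miRNAs were higher too, at 11212 to 16081 CPM before and 18408 to 20895 CPM after injury in C57BL/6 (15254 to 16081 CPM before injury without libraries 4 and 5). Most of this sum is miR-126a-3p. The other, miR-126a-5p, overlapped, at 2049 to 4569 CPM before and 2681 to 5010 CPM after injury. In CAST/Ei endothelial miRNAs overlapped, at 18746 to 27549 CPM before and 17967 to 21824 CPM after injury, and glial miRNAs were 34808 to 39832 CPM in naive and 28781 to 30287 CPM in injured ganglia, the opposite direction. Summed sensory neuron miRNAs were lower after injury in both strains without overlap, at 127937 to 161052 CPM before and 99982 to 105724 CPM after injury in C57BL/6, and 120554 to 136550 CPM before and 95969 to 104135 CPM after injury in CAST/Ei. Most of the sensory neuron sum is miR-138-5p, which averaged 94686 CPM in C57BL/6 naive ganglia, and the single miRNAs differed. Of the 5 log2 differences for injury, 2 were above 0 in C57BL/6 and 1 in CAST/Ei. The part of any of these cell types in the members' values was not tested.

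**Figure D5:**
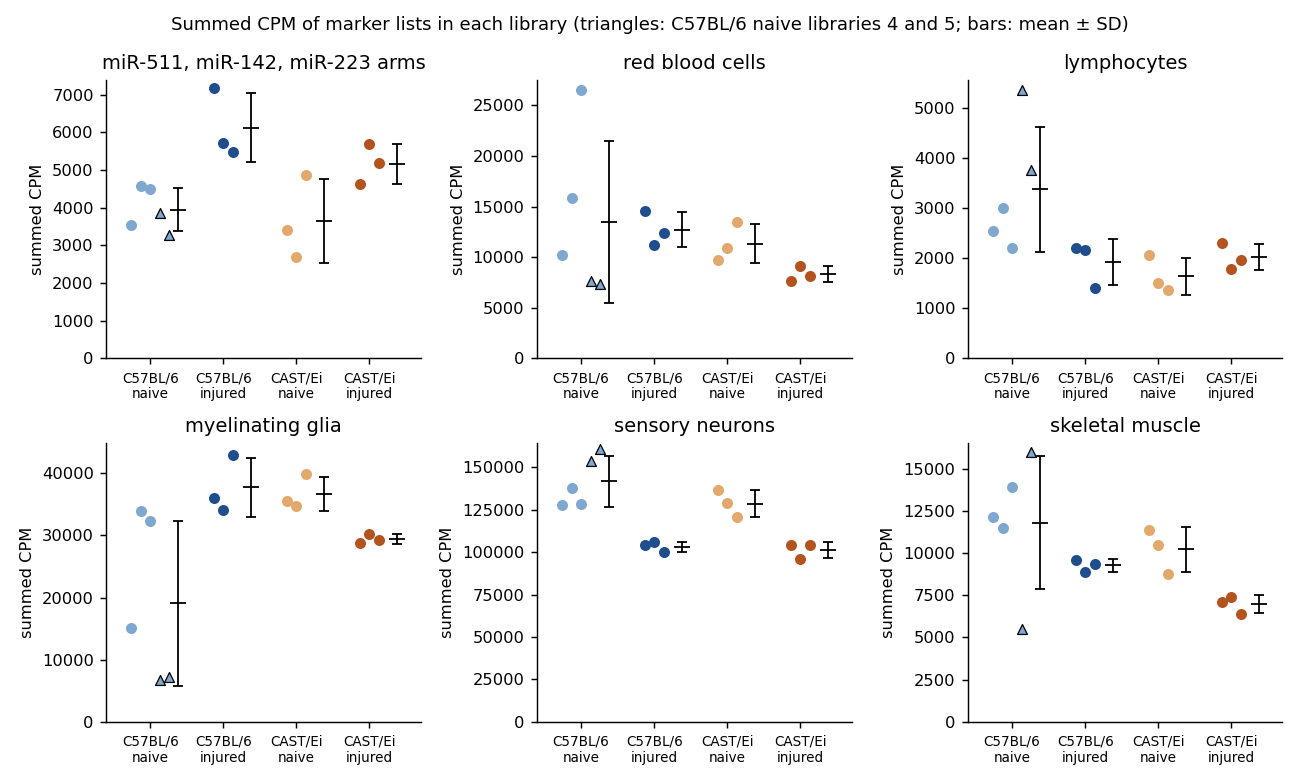
Summed CPM of the members and of 5 other miRNA lists in each library, by group (each panel has its own linear axis); points are libraries and bars the mean and SD. The members sum to 5469 to 7166 CPM in C57BL/6 injured and 3270 to 4574 CPM in C57BL/6 naive libraries, and C57BL/6 naive libraries 4 and 5 hold the lowest sums for myelinating glia, at 6737 and 7123 CPM.

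Among the 633 tested miRNAs outside the members, the patterns nearest to each main arm were ranked by the root mean square distance between log2 profiles centred on their means over the 14 libraries, which share scaling and depth. Nearest to miR-142-3p were miR-369-3p (distance 0.32), miR-142b (0.36) and miR-495-3p (0.42), where the median of all was 1.02. The other arm of its hairpin, miR-142-5p, was at 0.84, with 172 of the 633 closer. For miR-511-3p the nearest were miR-323-3p (0.46), miR-376c-3p (0.47) and miR-1193-3p (0.47), with a median of 0.98, while miR-142-5p was at 0.62 and miR-223-3p at 0.66. miR-223-3p had miR-93-5p (0.34), miR-380-5p (0.35) and miR-151-5p (0.36) as its nearest, with a median of 0.67, and the member miR-142-5p was closer than all of them, at 0.32.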

How the data were processed

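Small RNA of 14 mouse DRG libraries was analysed, grouped by sample title; the series' design text calls a group's libraries biological replicates, and p-values measure the spread between them. Reads were aligned with Bowtie2, per the submitters' processing notes; its version, the genome build, the miRNA release and the use of strand were not given in the sources used here. The deposited values are a signal that the authors scaled by library size and named CPM: library totals run from 867581 to 1311857, unlike plain CPM. In 14 of 14 libraries 100% of values were whole multiples of 1 read (tolerance 1e-06), and TMM factors recomputed from these reads matched the scaling to 1.04e-05; C57BL/6 injured library 1 is the least certain, so edgeR was also run without it, a choice made after seeing the data.

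limma-trend (limma 3.58.1, R 4.3.3) was fitted to log2(CPM + 1), which understates changes of low miRNAs, with 1 mean per group over 14 libraries and 638 miRNAs at 5 CPM or more in at least 3 libraries. P-values were Benjamini-Hochberg adjusted over the 638, with a threshold of 0.05, two-sided. Arm ratios used exact permutation tests adjusted over 12 tests (scipy 1.17.1). Alternatives were other pseudocounts, filters and scalings, edgeR 4.0.16 and DESeq2 1.42.0 on recovered reads, fewer groups, a replicate block and left-out libraries. No label says that replicate numbers pair samples. Deviations of same-numbered libraries correlated above 0.1 in all 3 pairs for strain in naive ganglia (0.104 to 0.114), so the blocked value is given there, and not in all pairs of the other 3 comparisons; over all 18 pairs r ran from -0.194 to 0.555, with 10 above 0.1, and 4 of 14 libraries correlated best with their own number. The fitting script was tested on simulated data. Every arm of the chosen hairpins was named, of the leukocyte list each arm past the threshold, and the 3 nearest patterns to each main arm; miR-150-5p was added after its values were seen. The members and lists were chosen with earlier results of these data known. All 14 libraries were used.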

Additional observations from a re-analysis of the deposited data

Results flagged for a closer look

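Of 10 checks for a library far from the rest of its group, 2 marked one, both in C57BL/6 naive library 5; chance alone marks about 1 group in 20. miR-142-5p measured 429 CPM in that library, where the gap to the next library took up 0.747 of the range of the group. miR-511-5p measured 2.26 CPM there, from 12 reads, with a gap of 0.879 of the range, and the other 4 libraries of the group had 0 to 2 reads. This library also belongs to the pair with low summed glial and high summed lymphocyte miRNAs, and its part in these values was not tested. In that pair the single lymphocyte miRNAs differed in direction.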

How the results depend on the processing

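Of 770 alternative values of the members' log2 differences, 719 kept their direction and their side of the threshold, 19 lost the call, 22 gained it and 10 changed sign. For injury in C57BL/6 the main analysis called 1 member, against 0 with only the groups compared, 2 without C57BL/6 naive libraries 4 and 5, 2 with the replicate block, 0 by edgeR without C57BL/6 injured library 1, and 1 to 2 when leaving out each library in turn. For injury in CAST/Ei it called 0, against 2 with DESeq2, 2 without the pair of naive libraries and 2 with the block. For strain in naive ganglia it called 0, against 1 with edgeR, with DESeq2, without the pair and with the block, and 0 to 1 over left-out libraries. For strain in injured ganglia it called 1, against 0 under each rescaling and by edgeR without injured library 1, and 0 to 1 over left-out libraries. Averaged over strains it called 2, against 1 by edgeR without injured library 1 and 1 to 3 over left-out libraries. In this comparison 3 were called with DESeq2, with every library rescaled to the same total, without the pair of naive libraries and with the block. The block changed the 4 counts given here and no other; it also takes up C57BL/6 naive libraries 4 and 5, which have no partner of the same number. Its values for comparisons other than strain in naive ganglia rest on a number that was not shown to pair samples.

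Changes of sign were small. The strain difference of miR-142-5p in injured ganglia was 0.026 and 0.053 under the rescalings, 0.0038 with edgeR and 0.027 with edgeR without injured library 1. Over left-out libraries, miR-223-3p ranged from -0.65 to 0.024 for strain in naive ganglia and from -0.29 to 0.38 for the difference of injury effects. The arm ratio of miR-142 ranged from -0.060 to 0.30 for injury in CAST/Ei and from -0.19 to 0.076 for strain in injured ganglia. The arm ratio of miR-223 ranged from -0.20 to 0.45 for injury in C57BL/6 and from -0.15 to 0.55 for strain in naive ganglia. The arm ratio of miR-511 for injury in C57BL/6 was 1.27 with a pseudocount of 5 CPM (exact permutation p = 0.0357, the smallest possible). This pseudocount exceeds every value of miR-511-5p, so the ratio mainly follows the level of miR-511-3p. Rescaling every library to the same total moved the median of all miRNAs from -0.09 to 0.15 for injury in CAST/Ei, from 0.12 to 0.26 in C57BL/6 and from 0.01 to 0.20 averaged over strains. The cause of these changes was not tested. With 61 reads in all, miR-511-5p is too shallow for a comparison between groups.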
